A study of Mus musculus with 10 samples.

Results

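The CD11c+ to CD11c- difference in gene expression of mouse brain microglia was compared between postnatal day 5 (P5) and 9 months of age. For each gene, the log2 fold of CD11c+ over CD11c- cells at P5 was subtracted from the same fold at 9 months, and this interaction was tested over all 10 libraries of the series. The same contrast was fitted again over 9 libraries, without replicate 2 of the P5 CD11c+ cells. Microglia came from the brains of wild-type (WT) C57BL/6 mice and were separated by flow cytometry on CD11c. The 4 groups were P5 CD11c+ (3 libraries), P5 CD11c- (3), 9-month CD11c+ (2) and 9-month CD11c- (2), with no treatment in any group. The labels state an amplification of full-length cDNA with a low-input kit (SMART-Seq v4) for the 9-month libraries only, so age and library preparation cannot be told apart. Each fold sets CD11c+ against CD11c- libraries of the same age.

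CD11c is the alpha chain of a leukocyte integrin and is encoded by Itgax. Microglia are the resident macrophages of the brain parenchyma, and in early postnatal white matter a subset of them carries CD11c, takes up myelin debris and secretes trophic factors such as insulin-like growth factor 1 (Igf1) and osteopontin (Spp1). Homeostatic microglia of the adult brain are known by genes such as Tmem119, P2ry12 and Sall1. Border-associated macrophages of the meninges and perivascular spaces, and blood leukocytes left in the tissue, express other surface receptors and granule proteins and can be carried into a sort of brain myeloid cells.

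Total counts per library lay between 11892082 and 25483573, except for P5 CD11c+ replicate 2, which held 2619610. That library detected 23033 genes at 1 CPM (the count scaled to the library's total) or above, where the remaining 9 detected 12762 to 14735, and its correlation with the other P5 libraries was 0.718 to 0.782, against 0.951 to 0.993 among those. Its Itgax level, 49.2 CPM, was below that of P5 CD11c- replicate 2 at 61.9 CPM, whereas every other CD11c+ library lay above every CD11c- library of its age. Tmem119, P2ry12 and Cx3cr1, which mark microglia, were detected in all 10 libraries. The labels do not say whether replicates came from separate animals, so p-values measure the spread between these libraries, which may be technical. In bulk samples, fewer cells of a type and less RNA per cell cannot be told apart.

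Among 19555 genes tested over the 10 libraries with edgeR's quasi-likelihood test, the CD11c difference was higher at 9 months for 59 (0.302%) and lower for 305 (1.56%) at a Benjamini-Hochberg adjusted p under 0.05. Without P5 CD11c+ replicate 2, 18348 genes were tested, 1607 (8.76%) were higher and 1889 (10.3%) were lower. All 364 genes called over 10 libraries were also called over 9 with the same sign, which made up 10.4% of the 3496 called there. The 10-library calls rested on single libraries: 0 genes passed without P5 CD11c- replicate 3 or without any of the 9-month libraries, and 7 to 30 higher and 57 to 184 lower without each of the remaining P5 libraries other than CD11c+ replicate 2. Over 9 libraries, leaving out a further library left 541 to 2694 higher and 1089 to 2164 lower, with the lowest counts without P5 CD11c+ replicate 1 and the most higher calls without 9-month CD11c- replicate 2. When libraries were scaled to the median of 36 homeostatic microglia genes, 11 genes were higher and 6861 lower over 10 libraries, and 115 higher and 9903 lower over 9.

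A fold was called reversed where the interaction passed the test and the log2 folds at P5 and at 9 months were at least 1 in size with opposite signs. It was called lost where the fold was at least 1 at P5 and under 1.5-fold at 9 months, and gained in the mirror case. It was called kept where the CD11c difference passed the test in the same direction at each age. Over 10 libraries, 69 genes were reversed (41 from higher to lower in CD11c+ cells, 28 from lower to higher), 1 was lost, 185 were gained (12 higher, 173 lower) and 61 were kept (0.312% of genes tested, 36 higher and 25 lower). Over 9 libraries, 337 genes were reversed (108 from higher to lower, 229 from lower to higher), 160 were lost (66 higher and 94 lower at P5), 1819 were gained (738 higher, 1081 lower) and 440 were kept (2.4%, 311 higher and 129 lower). Of the 337 genes reversed over 9 libraries, 107 also passed the test at each age, and of the 69 reversed over 10 libraries, 11 did. Many of the 229 that went from lower to higher were scarcely expressed: 55 had an average log2 CPM of 3 or more, and 54 had a group with no counts at all. The folds, interactions and tests below are from the 9-library fit unless the 10-library fit is named, and levels are given for all 10 libraries. The counts of list members below stand beside 8.76% of all genes called higher and 10.3% called lower over 9 libraries. Their class counts stand beside 337 reversed, 160 lost, 738 gained higher, 1081 gained lower, 311 kept higher and 129 kept lower of 18348 genes.

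**Figure D1:**
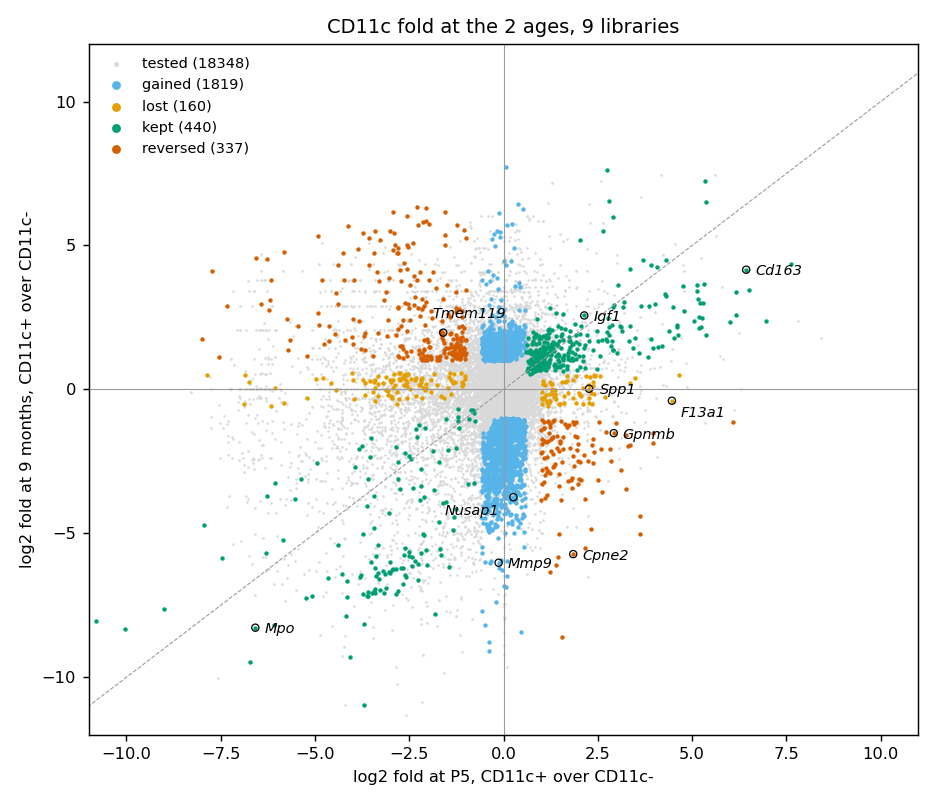
Log2 fold of CD11c+ over CD11c- at P5 (x axis) against the same fold at 9 months (y axis) for each of 18348 genes tested over 9 libraries, with reversed, lost, gained and kept genes in colour and equal folds on the dashed line. Cd163 and Igf1 lie among the kept genes, Spp1 and F13a1 near 0 at 9 months, Tmem119 and Gpnmb in opposite corners; folds of genes with a group at 0 counts are fitted values.

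Itgax itself, which the sort selects for, was higher in CD11c+ cells at both ages. Its level in the P5 CD11c+ libraries was 250.2, 49.2 and 145 CPM, against 33.1, 61.9 and 29.4 in the P5 CD11c- libraries, and 28.0 and 20.7 CPM in the 9-month CD11c+ libraries against 5.80 and 3.21 in CD11c-. The level was lower at 9 months on both sides of the gate, while the log2 fold was 2.06 (SE 0.35) at P5 and 2.19 (SE 0.42) at 9 months. The interaction was 0.13 (95% interval -1.04 to 1.31, adjusted p = 0.888), and over 10 libraries 0.59 (interval -1.42 to 2.6). Over 10 libraries neither fold passed the test, at 1.63 (adjusted p = 0.519) at P5 and 2.22 (adjusted p = 0.118) at 9 months. Itgax was therefore kept only in the 9-library fit. Without P5 CD11c+ replicate 1, Itgax was no longer called at both ages. The promoter of Itgax is printed because it belongs to the gene that defines the groups. It is the 250 bases before the RefSeq start on GRCm38.p6, chr7:128129300-128129549, plus strand, 5′ to 3′, and capitals mark a CCAAT box (the binding element of NF-Y, here on the opposite strand) and a TGACTCA element (bound by AP-1 factors, opposite strand).
Itgax promoter: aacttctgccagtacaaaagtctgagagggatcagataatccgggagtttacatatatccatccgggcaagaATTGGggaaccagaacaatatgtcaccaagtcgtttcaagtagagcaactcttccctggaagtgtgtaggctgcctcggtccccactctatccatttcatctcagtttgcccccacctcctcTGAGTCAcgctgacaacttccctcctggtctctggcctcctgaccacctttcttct
In such windows, matched to 11717 of the 18348 genes tested, the letters TGACTCA stood on either strand in 3.18% of all promoters, in 19 of 236 (8.05%) of kept genes higher in CD11c+ cells and in 8 of 88 (9.09%) of kept genes lower in them. These shares describe letters in a window, and binding was not measured.

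Igf1, the trophic factor of the neonatal subset, was higher in CD11c+ cells at both ages and at a lower level at 9 months. It stood at 473, 542 and 412 CPM in P5 CD11c+ cells, 109.8, 108 and 53.1 in P5 CD11c- cells, 22.9 and 25.4 in 9-month CD11c+ cells and 3.23 and 3.48 in 9-month CD11c- cells. The CD11c+ libraries lay above the CD11c- libraries of their age without overlap, and each 9-month level was below all P5 levels. The log2 fold was 2.14 (SE 0.25, adjusted p = 0.000702) at P5 and 2.57 (SE 0.30, adjusted p = 0.000207) at 9 months, with an interaction of 0.43 (95% interval -0.42 to 1.28, adjusted p = 0.461). Igf1 was kept in both fits and with each further library left out.

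Apoe, the apolipoprotein that carries lipids between brain cells, was measured at 16970, 8765 and 16740 CPM in P5 CD11c+ cells against 7608, 4346 and 3944 in CD11c- cells. At 9 months it was at 10040 and 8799 CPM against 1930 and 1615. Its log2 fold was 1.53 (SE 0.24) at P5 and 2.15 (SE 0.28) at 9 months, and the interaction of 0.62 (interval -0.19 to 1.43) did not pass the test. Over 10 libraries the P5 fold of Apoe was 1.22 and did not pass (adjusted p = 0.505), so Apoe was kept only over 9. The complement component C2 was kept with folds of 3.70 and 4.51 (interaction 0.81, interval -0.70 to 2.31), at 75.2, 25.6 and 66.0 CPM in P5 CD11c+ cells against 6.74, 6.05 and 1.85 in CD11c- cells, and at 7.38 and 5.90 CPM at 9 months against 0.207 and 0.271. Ccn1, a secreted matrix protein, was kept with folds of 4.75 and 3.59. When the libraries were scaled to the median of the homeostatic gene list described further on, Igf1, C2 and Ccn1 were still kept, while the 9-month folds of Itgax (adjusted p = 0.232) and Apoe (adjusted p = 0.0611) no longer passed. Under that scaling the interactions of Itgax (-1.61, adjusted p = 0.0468), Igf1 (-1.36, adjusted p = 0.0145) and Apoe (-1.19, adjusted p = 0.0159) turned below 0 and passed the test.

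Markers of border-associated macrophages had the most kept genes of the 31 lists: 24 of 34 tested were higher in CD11c+ cells at both ages. Their median log2 fold was 4.12 at P5 and 2.37 at 9 months, and their median interaction was -1.58 against 0.24 over all genes tested. In 19 of the 34 the fold was smaller at 9 months by the test, and in 0 it was larger. The summed share of the list's 34 genes in all counts was 2.21% to 2.53% in P5 CD11c+ libraries, 0.255% to 0.458% in P5 CD11c-, 0.379% to 0.392% in 9-month CD11c+ and 0.141% to 0.161% in 9-month CD11c-. The list therefore moved with the CD11c gate at both ages, and the part of such macrophages in the CD11c difference of other genes was not tested.

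Cd209f, a C-type lectin of perivascular macrophages, was scarcely detected in P5 CD11c- cells. Its level was 96.3, 54.2 and 128 CPM in P5 CD11c+ cells against 0.202, 0.885 and 0.420 in CD11c- cells, and 89.0 and 85.3 CPM at 9 months against 4.72 and 2.53. The 9-month CD11c+ levels lay within the P5 range, and the fold fell from 7.62 (SE 0.40) to 4.35 (SE 0.37), an interaction of -3.28 (adjusted p = 0.00268; over 10 libraries -2.91, adjusted p = 0.109, which did not pass). Cd163, the scavenger receptor for haemoglobin and haptoglobin, was at 582, 249 and 503 CPM against 3.57, 9.29 and 3.62 at P5, and at 120.4 and 69.3 against 4.56 and 4.25 at 9 months. Here the CD11c- level stayed between 3.57 and 9.29 CPM and the CD11c+ level was lower at 9 months: the fold went from 6.43 (SE 0.44) to 4.16 (SE 0.48), with an interaction of -2.27 (adjusted p = 0.023; over 10 libraries -1.93, adjusted p = 0.279). The interaction over 9 libraries did not pass without P5 CD11c+ replicate 1, P5 CD11c- replicate 3 or 9-month CD11c+ replicate 2.

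Several chemokines and receptors of the same list were kept with a smaller fold. Pf4, a platelet and macrophage chemokine, went from a log2 fold of 5.99 at P5 to 2.35 at 9 months (interaction -3.64, adjusted p = 0.00349), and Ms4a7, a membrane protein of macrophages, from 5.19 to 2.12 (interaction -3.07, adjusted p = 0.000876). Ccl7, a monocyte-attracting chemokine, was at 97.2, 138 and 122 CPM in P5 CD11c+ cells and 91.3 and 106 at 9 months, while its CD11c- level went from 4.04 to 6.47 CPM at P5 to 21.2 and 35.1 CPM at 9 months. Its fold of 4.21 at P5 was 1.49 at 9 months, with an interaction of -2.71 in each fit. Siglec1 (sialoadhesin, which binds sialic acids) went from 4.61 to 1.90. Under scaling to the homeostatic list, the 9-month folds of Pf4, Ms4a7, Ccl7 and Siglec1 no longer passed the test, whereas Cd209f and Cd163 remained kept. Fcna (ficolin A, a soluble lectin) had folds of 5.13 and 3.64 and an interaction of -1.49 (interval -2.82 to -0.17, adjusted p = 0.106). Timd4, a receptor for phosphatidylserine on dying cells, had folds of 5.32 and 3.66, and its interval of -4.62 to 1.29 covers no change as well as a large fall.

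**Figure D2:**
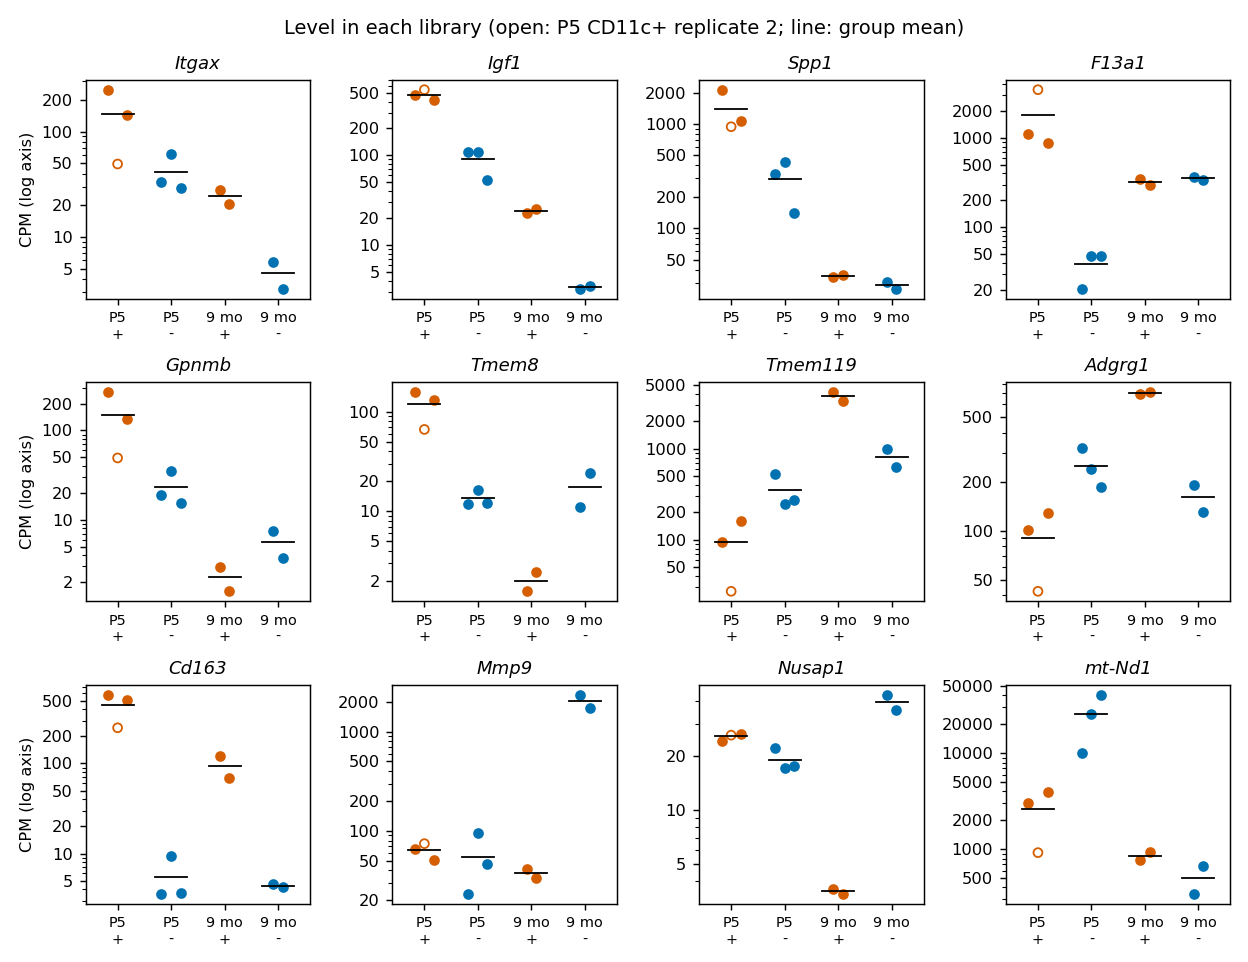
Level (CPM, log axis) of 12 genes in each library, by age and CD11c gate, with P5 CD11c+ replicate 2 as an open point and a line at each group's mean. Igf1 and Cd163 lie higher in CD11c+ libraries at both ages, Tmem119 and Adgrg1 are lower in CD11c+ at P5 and higher at 9 months, and Mmp9 stands apart only in the 9-month CD11c- libraries, at 2353 and 1745 CPM.

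Genes of the homeostatic microglia program went from lower or equal to higher in CD11c+ cells. Of 36 tested, 28 had a higher CD11c difference at 9 months and 1 a lower one. Their median log2 fold was -0.46 at P5 and 1.42 at 9 months, with 9 of 36 above 0 at P5 and 34 of 36 at 9 months, and their median interaction was 1.97 against 0.24 over all genes. Only 4 of them, Tmem119, Adgrg1, Slc2a5 and Sparc, reached a fold of 2 in opposite directions at the 2 ages, while 16 were gained and 2 (Tgfbr2 and Gas6) were kept. Over 10 libraries the list's median was 2.30 against -0.06, with 4 members called higher.

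Tmem119, a surface protein that marks microglia among brain macrophages, was at 95.1, 27.1 and 159 CPM in P5 CD11c+ cells and at 529.8, 249.7 and 277 in P5 CD11c- cells. At 9 months it was at 4202 and 3361 CPM in CD11c+ cells and 998 and 635 in CD11c- cells. The groups did not overlap at either age, and the order of the groups was opposite. The log2 fold was -1.60 (SE 0.32, adjusted p = 0.0156) at P5 and 1.97 (SE 0.34, adjusted p = 0.00164) at 9 months, an interaction of 3.57 (95% interval 2.54 to 4.61, adjusted p = 0.000923). Over 10 libraries the interaction was 4.04 with an adjusted p of 0.0722.

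Adgrg1, an adhesion receptor of microglia and neural progenitors, was at 100.4, 42.4 and 128 CPM in P5 CD11c+ cells against 322, 239.5 and 187 in CD11c- cells, and at 692 and 713 CPM at 9 months against 190.5 and 131. Its fold of -1.27 (SE 0.20) at P5 was 1.88 (SE 0.22) at 9 months, and the interaction passed the test in both fits (3.15, adjusted p = 0.000251 over 9 libraries; 3.54, adjusted p = 0.0369 over 10). Slc2a5, the fructose transporter of microglia, had folds of -1.24 and 1.76, an interaction of 3.0 (adjusted p = 0.000375) and 3.35 over 10 libraries (adjusted p = 0.0335). In these genes the CD11c+ level was higher at 9 months than at P5 in every library. Outside the list, Mrc2, a collagen receptor, went from -1.64 to 1.78, Tmem44 from -1.67 to 2.04 and Slco4a1, an organic anion transporter, from -1.94 to 1.17, and all 3 interactions passed in both fits. Over 10 libraries the folds of Adgrg1, Slc2a5, Mrc2, Tmem44 and Slco4a1 did not pass the test at either age.

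Other microglial genes changed the CD11c fold without a reversal at 2-fold. P2ry12, the ADP receptor of microglial processes, had folds of -0.77 (SE 0.28) at P5 and 1.4 (SE 0.31) at 9 months (interaction 2.16, adjusted p = 0.00616). Sall1, a transcription factor of microglial identity, had folds of -0.77 and 1.41 (interaction 2.17, adjusted p = 0.00726), though its own level in CD11c+ cells was 412, 70.6 and 291 CPM at P5 and 179 and 149 at 9 months. Over 10 libraries neither interaction passed, at 2.59 for P2ry12 (adjusted p = 0.166) and 2.65 for Sall1 (adjusted p = 0.206). Cx3cr1, the fractalkine receptor, was at 2417, 7345 and 1921 CPM in P5 CD11c+ cells, so that replicate 2 lay above all P5 CD11c- libraries (3696, 1677 and 3093) and the others did not. Its interaction was 1.97 (adjusted p = 0.015) and did not pass without P5 CD11c+ replicate 3 or 9-month CD11c+ replicate 1, nor over 10 libraries (1.34, adjusted p = 0.432).

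These interactions depended in part on the scaling of the libraries. The homeostatic list took 10.2% to 10.4% of all counts in 9-month CD11c+ libraries and 3.6% to 3.85% in 9-month CD11c- libraries, where the 24 markers of secondary and tertiary neutrophil granules took 19% to 25.4%, against 0.741% to 0.84% in CD11c+. The P5 shares of that granule list were 0.139% to 0.684%, and the part of granulocyte transcripts in the 9-month fold was not tested. When libraries were scaled to the median of the homeostatic list, which holds that list near 0 by construction, the median interaction of all genes was -1.52 in place of 0.24. The interaction of Tmem119 was then 1.75 (adjusted p = 0.00497), that of Adgrg1 1.36 (adjusted p = 0.0035), that of Slc2a5 1.19 (adjusted p = 0.00404) and that of Mrc2 1.64 (adjusted p = 0.0033). None of these genes was reversed under that scaling, because their 9-month log2 folds were under 1 in size. Those folds were 0.46 for Tmem119 (adjusted p = 0.223), 0.37 for Adgrg1 (adjusted p = 0.18), 0.25 for Slc2a5 (adjusted p = 0.311) and 0.27 for Mrc2 (adjusted p = 0.397), and none passed the test. The 9-month fold of Tmem44 was 0.53 (adjusted p = 0.281), and that of Slco4a1 turned to -0.34 (adjusted p = 0.305). P2ry12 (0.35), Sall1 (0.34) and Cx3cr1 (0.19) did not pass under that scaling.

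Genes that went from higher to lower in CD11c+ cells came from several groups. Tmem8 was at 157, 66.4 and 133 CPM in P5 CD11c+ cells against 11.9, 16.4 and 12 in CD11c- cells, and at 1.57 and 2.44 CPM at 9 months against 11 and 24. The change came with the CD11c+ side, since the CD11c- level was 11 to 24 CPM at both ages. Its log2 fold was 3.24 (SE 0.37) at P5 and -3.46 (SE 0.46) at 9 months, with an interaction of -6.70 (adjusted p = 0.000241) and, over 10 libraries, -6.36 (adjusted p = 0.013). Cmah, which makes the sialic acid N-glycolylneuraminic acid, was at 94.3, 46.6 and 94.4 CPM against 4.85, 7.52 and 3.70 at P5, and at 7.81 and 6.92 against 27.0 and 18.3 at 9 months. In Cmah both sides moved, and the interaction was -5.82 (SE 0.40, adjusted p = 0.000126).

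Cpne2, a calcium-dependent phospholipid-binding copine, was at 13.2, 5.73 and 14.9 CPM in P5 CD11c+ cells against 1.62, 5.09 and 3.53 in CD11c- cells. At 9 months it was at 2.47 and 3.63 CPM in CD11c+ cells and at 151 and 119 in CD11c- cells. Its reversal therefore rested mainly on the 9-month CD11c- level, with folds of 1.85 (SE 0.39) and -5.72 (SE 0.48). Stk39, a kinase that regulates cation-chloride cotransporters, had folds of 2.16 and -5.51 and an interaction of -7.67, and Rgs18, a regulator of G protein signalling in blood cells, had folds of 1.96 and -3.28. The interactions of Cpne2, Stk39, Rgs18, Cmah and Tmem8 passed in both fits and with each further library left out of the 9.

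The reversed genes included members of the axon tract microglia list, the program known from neonatal white matter. Of 34 tested members of that list, 0 had a higher CD11c difference at 9 months and 14 a lower one, with a median log2 fold of 0.85 at P5 and 0.04 at 9 months. There 3 were reversed (Gpnmb, Fabp5 and Lgals1), 2 were lost (Spp1 and Anxa5), 2 were gained lower (Anxa2 and Vim) and 9 were kept, Igf1 and Itgax among them. Of all 18348 genes tested, 108 were reversed from higher to lower, 160 lost, 1081 gained as lower and 311 kept higher. The list's share of genes gained as lower was near that of all genes. Gpnmb, a lysosomal glycoprotein of activated macrophages, was at 268, 49.2 and 133 CPM in P5 CD11c+ cells against 18.8, 35.4 and 15.5, and at 2.98 and 1.58 CPM at 9 months against 7.46 and 3.75. All 9-month levels were below all P5 levels. The folds were 2.92 (SE 0.41) and -1.52 (SE 0.51), and the interaction was -4.44 (adjusted p = 0.00159; over 10 libraries -3.99, adjusted p = 0.0845).

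Fabp5, a fatty acid-binding protein, was at 87.9, 21.4 and 53.4 CPM against 24.5, 36.6 and 23 at P5 and at 5.34 and 6.75 against 38.5 and 35.6 at 9 months. Its interaction was -4.03 (adjusted p = 0.000366), and over 10 libraries it was -3.61 and did not pass (adjusted p = 0.054). Lgals1 (galectin-1) was at 119, 386 and 123 CPM against 21.9, 51.1 and 32.3 at P5 and at 44.9 and 42.8 against 112 and 117 at 9 months (interaction -3.25, adjusted p = 0.00176; over 10 libraries -3.83, adjusted p = 0.0335). For Fabp5 the 9-month CD11c- levels were at the top of their P5 range, and for Lgals1 above it. Cfp, which encodes properdin and stabilises the complement convertase, was at 168, 590.2 and 184 CPM in P5 CD11c+ cells and 56.7 and 46.1 at 9 months, against 19.5, 52.1 and 51.0 and then 309 and 238 in CD11c- cells. Its interaction was -4.54 (adjusted p = 0.000909). Gpnmb, Fabp5, Lgals1 and Cfp kept their calls with each further library left out and under scaling to the homeostatic list.

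Spp1, a secreted phosphoprotein and the best known product of the neonatal subset, lost its CD11c fold. Its level was 2133, 941 and 1077 CPM in P5 CD11c+ cells against 328, 428 and 140.0 in CD11c- cells. At 9 months it was 33.7 and 35.5 CPM against 30.6 and 26.2. The groups did not overlap at either age, but at 9 months they lay within 10 CPM of each other. The log2 fold was 2.27 (SE 0.38, adjusted p = 0.00699) at P5 and 0.02 (SE 0.42) at 9 months, with an interaction of -2.25 (95% interval -3.51 to -0.98, adjusted p = 0.0218). The call was lost without P5 CD11c+ replicate 1, 9-month CD11c+ replicate 1 or 9-month CD11c+ replicate 2 and over 10 libraries the interaction was -1.95 (interval -3.61 to -0.29, adjusted p = 0.234).

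F13a1, the A subunit of coagulation factor XIII and a marker of border-associated macrophages and monocytes, was the single gene lost over 10 libraries. It was at 1118, 3457 and 879 CPM in P5 CD11c+ cells and at 20.5, 48.2 and 47.4 in CD11c- cells. At 9 months it was at 349 and 300.5 CPM against 367 and 340.1. The CD11c- level was higher at 9 months than at P5 and the CD11c+ level was lower, and the fold went from 4.46 (SE 0.39, adjusted p = 0.000117) to -0.39 (SE 0.40), an interaction of -4.86 (adjusted p = 0.00056; over 10 libraries -5.51, adjusted p = 0.0192). Under scaling to the homeostatic list its 9-month fold of -1.90 (adjusted p = 0.00941) passed as lower, beside a P5 fold of 4.64, so F13a1 was then reversed and not lost. The classical monocyte list, which also holds F13a1, took 1.88% to 2.13% of counts in 9-month CD11c- libraries, 0.149% to 0.162% in 9-month CD11c+ and 0.117% to 0.524% at P5, and its part in this change was not tested.

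Other genes lost their P5 fold while their 9-month folds stayed near 0. Igfbp4, a binding protein of insulin-like growth factors, was at 998, 1203 and 928 CPM against 227, 160.4 and 150.5 at P5 and at 47.2 and 102 against 67.8 and 46.6 at 9 months, with folds of 2.27 and 0.14 (interaction -2.12, adjusted p = 0.00608). Wwp1, a ubiquitin ligase, had folds of 2.31 and -0.12 (interaction -2.43, adjusted p = 0.00206), and Arhgap19 had folds of 1.92 and -0.48 (interaction -2.40, adjusted p = 0.00101). Cd40, a costimulatory receptor, fell between the classes: its level went from 0.337 to 0.673 CPM in P5 CD11c- cells to 6.54 and 5.2 at 9 months, and its fold from 3.20 to 0.63 (interaction -2.57, adjusted p = 0.00739). Over 10 libraries the interactions of Igfbp4 (adjusted p = 0.0762), Wwp1 (adjusted p = 0.117), Arhgap19 (adjusted p = 0.227) and Cd40 (adjusted p = 0.117) did not pass. Under scaling to the homeostatic list the 9-month folds of Spp1 (-1.49), Igfbp4 (-1.36), Wwp1 (-1.62) and Arhgap19 (-1.99) passed the test as lower in CD11c+ cells.

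Genes induced by type I interferon formed part of the lost class. Of 42 tested, 14 had a lower CD11c difference at 9 months and 0 a higher one, 6 were lost (Oas2, Slfn5, Ifit3b, Oas1a, Ifit1 and Oasl1) and 6 were kept higher. Of all 18348 genes tested, 160 were lost and 311 kept higher. The list's median fold was 0.50 at P5 and 0.13 at 9 months, and its median interaction was -0.57 against 0.24 over all genes. Ddx60, a helicase that acts with the RNA sensor RIG-I, was at 124, 76.7 and 124 CPM in P5 CD11c+ cells and 29.0, 25.1 and 17.1 in CD11c- cells. At 9 months it was at 29.7 and 25.9 CPM against 43.8 and 30.6. All 3 P5 CD11c+ libraries stood above the other 7, and the folds of 2.23 (SE 0.18) and -0.67 (SE 0.20) gave an interaction of -2.89 (adjusted p = 0.000248) and of -2.62 over 10 libraries (adjusted p = 0.0313). Ddx60 was not in the lost class, since its 9-month fold was larger in size than the limit set for that class. It was not reversed either, since that fold did not reach a fold of 2. The 9-month fold passed the test as lower (adjusted p = 0.0248). Oas2, an enzyme that senses double-stranded RNA, was at 134, 20.6 and 86.5 CPM against 20.6, 30.2 and 22.2 at P5, where replicate 2 lay within the CD11c- range, and at 21.8 and 23.6 against 21.9 and 19.4 at 9 months (interaction -2.11, adjusted p = 0.00385). Under scaling to the homeostatic list, over 9 libraries, the 9-month folds of Oas2 (-1.635, adjusted p = 0.0029) and Ddx60 (-2.18, adjusted p = 3.76e-05) passed as lower. With P5 folds of 2.215 and 2.503, both genes were then reversed. The median 9-month fold of the interferon list was -1.38 under that scaling. The promoters of Spp1 and Ddx60 are printed because these genes stand for the trophic and the interferon-induced part of the P5 difference. They are 250 bases before the RefSeq start on GRCm38.p6, at chr5:104434861-104435110 and chr8:61927837-61928086, both on the plus strand. Capitals mark CCAAT boxes, GAGGAAGT (a PU.1 element) and GAAA followed after any 2 bases by GAAA (the core of the interferon-stimulated response element), on either strand.
Spp1 promoter: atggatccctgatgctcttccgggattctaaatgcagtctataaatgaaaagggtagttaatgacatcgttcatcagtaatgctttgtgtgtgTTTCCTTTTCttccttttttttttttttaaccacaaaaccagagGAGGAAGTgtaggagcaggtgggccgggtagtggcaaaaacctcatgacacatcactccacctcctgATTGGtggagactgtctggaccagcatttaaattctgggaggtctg
Ddx60 promoter: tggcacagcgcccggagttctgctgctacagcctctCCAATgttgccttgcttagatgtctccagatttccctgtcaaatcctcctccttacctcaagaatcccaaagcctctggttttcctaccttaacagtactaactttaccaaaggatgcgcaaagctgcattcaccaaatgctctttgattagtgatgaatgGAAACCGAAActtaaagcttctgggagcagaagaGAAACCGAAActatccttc
In Ddx60 the element stood at 53 to 44 and at 19 to 10 bases before the start, both as GAAACCGAAA. Of the interferon list's 32 matched promoters, 16 (50%) held it, as did 9 of 54 (16.7%) of genes lost from a higher P5 fold, against 2.92% of all promoters. These sets overlap, since 6 genes of the interferon list were lost. None of the matches in the printed windows overlapped another.

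**Figure D3:**
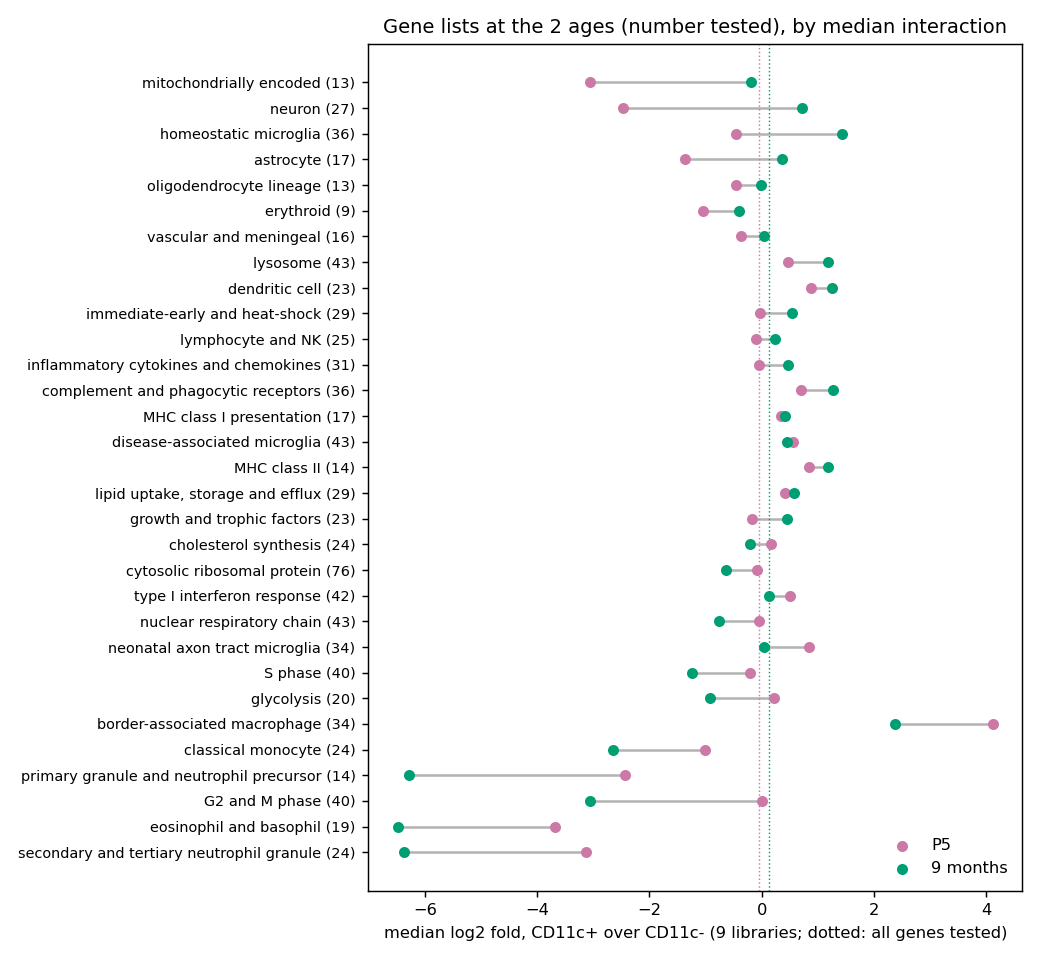
Median log2 fold of CD11c+ over CD11c- at P5 and at 9 months (x axis) for 31 gene lists, ordered by median interaction over 9 libraries, with the number of genes tested in brackets and dotted lines at the medians of all genes. Homeostatic microglia genes go from -0.46 to 1.42 and mitosis genes from 0.01 to -3.06; under scaling to the homeostatic list, 10 of the 13 lists with a median interaction above 0 fall below 0, all but the homeostatic, mitochondrially encoded and neuron lists, while all 31 stay on the same side of the median of all genes.

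Mitochondrially encoded genes made the opposite change in the 9-library fit: they were lower in CD11c+ cells at P5, and by their median that difference was lost at 9 months. Their 13 genes had a median log2 fold of -3.06 at P5 and -0.20 at 9 months, 6 passed the interaction test, all of them higher, and these 6 were all in the lost class. The subunit of respiratory complex I encoded by mt-Nd1 was at 3005, 922 and 3906 CPM in P5 CD11c+ cells and at 10020, 25650 and 40720 in CD11c- cells, and at 772 and 939 CPM against 344 and 662 at 9 months. Its interaction was 3.57 (SE 0.87, adjusted p = 0.0184), and that of mt-Cytb, which encodes cytochrome b, was 3.43 (adjusted p = 0.0165). Neither passed without P5 CD11c+ replicate 1 or 9-month CD11c- replicate 1, nor over 10 libraries. Under scaling to the homeostatic list, over 9 libraries, the interactions of mt-Nd1 (1.915, adjusted p = 0.124) and mt-Cytb (1.77, adjusted p = 0.134) did not pass. The median 9-month fold of the mitochondrially encoded list was then -1.7, so the loss depended on the scaling. The summed share of this list ranged from 7.15% to 28% among the P5 CD11c- libraries, 0.771% to 2.79% in P5 CD11c+ and 0.223% to 0.418% at 9 months. A share of mitochondrial transcripts also moves with RNA quality and library preparation, whose part was not tested.

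The class with the most genes was gained, and it held nearly all genes of mitosis. All 40 tested genes of the G2 and M phase list had a lower CD11c difference at 9 months, and 37 of them were in the gained class. Their median log2 fold was 0.01 at P5 and -3.06 at 9 months, and over 10 libraries 21 of 40 passed, all lower. Nusap1, a protein of the mitotic spindle, was at 24.1, 26 and 26.5 CPM in P5 CD11c+ cells, 22.0, 17.0 and 17.4 in P5 CD11c- cells, 3.65 and 3.42 in 9-month CD11c+ cells and 43.6 and 35.7 in 9-month CD11c- cells. Its folds were 0.26 (SE 0.17) and -3.75 (SE 0.21), and the interaction was -4.01 (adjusted p = 0.000108) and -3.91 over 10 libraries (adjusted p = 0.012). Birc5 (survivin, of the chromosomal passenger complex) had folds of -0.47 and -4.18, and Rrm2, a subunit of ribonucleotide reductase that makes deoxynucleotides in S phase, -0.51 and -4.27. Of 40 S phase genes, 21 were lower and 1 higher, with a median interaction of -1.11. The summed share of the G2 and M phase list was 0.307% to 0.335% in 9-month CD11c- libraries, 0.045% to 0.0495% in 9-month CD11c+ and 0.114% to 0.187% at P5.

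Hmmr, a receptor for hyaluronan that also binds the spindle, was at 20.9, 34.0 and 17.2 CPM against 17.1, 16.7 and 12.4 at P5 and at 2.79 and 3.93 against 33.0 and 24.3 at 9 months (interaction -3.48, adjusted p = 0.000258). Its promoter is printed as an example of the group because it held 5 CCAAT boxes within 250 bases, all on the opposite strand and in capitals (GRCm38.p6, chr11:40733438-40733687, minus strand).
Hmmr promoter: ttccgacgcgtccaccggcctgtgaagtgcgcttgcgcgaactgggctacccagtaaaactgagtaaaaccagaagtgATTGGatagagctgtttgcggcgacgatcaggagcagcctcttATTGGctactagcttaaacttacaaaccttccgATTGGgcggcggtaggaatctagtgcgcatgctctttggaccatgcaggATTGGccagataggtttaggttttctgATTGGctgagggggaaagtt
At least 1 CCAAT box was found in 26 of the 34 matched G2 and M phase promoters (76.5%), against 36.2% of all promoters and 41.2% of genes gained as lower. The box was not particular to mitosis genes. It was in 15 of 17 (88.2%) promoters of the cholesterol synthesis list, 12 of 15 (80%) of MHC class I presentation and 20 of 30 (66.7%) of S phase. Other lists had fewer, such as glycolysis with 5 of 20 (25%). The letters TTTGAA, the cell cycle homology region of mitotic genes, were in 12 of the 34 (35.3%) against 11.1% of all.

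By their medians, genes of neutrophils and their precursors were lower in CD11c+ cells at both ages, by more at 9 months. Of 24 genes for secondary and tertiary granules, 21 had a lower CD11c difference at 9 months and 0 a higher one, and 16 were kept lower, with a median fold of -3.12 at P5 and -6.37 at 9 months. Of 14 genes for primary granules and precursors, 6 were lower, 0 higher and 7 kept lower, and the median went from -2.43 to -6.28. That list took 0.446% to 0.495% of counts in 9-month CD11c- libraries and 0.0819% to 0.0849% in 9-month CD11c+, while its P5 shares overlapped, at 0.0414% to 0.0888% in CD11c+ and 0.054% to 0.0884% in CD11c-. Mmp9, the gelatinase of tertiary granules, was in the gained class: it was at 66.3, 74.4 and 50.9 CPM against 23.3, 94.8 and 47.0 at P5, with overlapping groups, and at 41.6 and 33.6 against 2353 and 1745 at 9 months (interaction -5.89, adjusted p = 0.000763; the same value over 10 libraries, adjusted p = 0.0135). Cxcr2, the chemokine receptor that draws neutrophils, had folds of -1.44 and -6.19, and Cebpe, a transcription factor of granule genes, -2.58 and -6.50.

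Some proteases of granules had few or no counts in the P5 CD11c+ libraries. Elane, neutrophil elastase, had 0 counts in all 3 P5 CD11c+ libraries against 1.48, 18.7 and 1.77 CPM in P5 CD11c- libraries, a level at least 89.7-fold lower when 0 is set to 3 counts over the group, and at least 19.6-fold lower without P5 CD11c- replicate 2, which held most of the counts. At 9 months Elane was at 3.81 and 0.983 CPM against 689 and 589. Prss34, a serine protease of basophils and mast cells, also had 0 counts in the P5 CD11c+ libraries, against 11.7, 6.27 and 19.7 CPM, at least 149-fold lower, and was at 2.0 and 0.299 against 265 and 251 CPM at 9 months. Ctsg (cathepsin G) had 1 count in all in the P5 CD11c+ libraries and 91 in P5 CD11c-, a ratio of 82.4 (95% counting interval 14.4 to 3290). Mpo, myeloperoxidase, was at 0.329, 2.29 and 0.214 CPM against 5.05, 55.8 and 7.15 at P5, with the highest value in CD11c- replicate 2, and at 7.18 and 1.45 against 1271 and 983 at 9 months. The interactions of these 4 genes had wide intervals that include 0 (Mpo -1.70, interval -6.49 to 3.10). Those intervals come from the fit over libraries, whereas the interval of the Ctsg ratio and the floors cover counting error only. Elane, Ctsg and Mpo were no longer kept without P5 CD11c+ replicate 1 or replicate 3, and Elane also without P5 CD11c- replicate 3 or 9-month CD11c- replicate 1. The Elane promoter is printed as that of a granule gene (GRCm38.p6, chr10:79886062-79886311, plus strand), with a CCAAT box on the opposite strand and a PU.1 element in capitals.
Elane promoter: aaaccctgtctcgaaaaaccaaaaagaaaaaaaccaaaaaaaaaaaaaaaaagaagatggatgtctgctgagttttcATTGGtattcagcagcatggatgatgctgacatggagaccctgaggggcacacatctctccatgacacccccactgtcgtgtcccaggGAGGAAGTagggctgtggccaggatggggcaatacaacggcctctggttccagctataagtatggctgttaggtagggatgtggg
The letters GAGGAAGT were in 3 of 11 (27.3%) matched promoters of the primary granule list, 4 of 20 (20%) of the secondary and tertiary list and 10 of 88 (11.4%) of all kept lower genes, against 2.65% of all promoters. These sets overlap, since the kept lower genes include 7 of the primary list and 16 of the secondary and tertiary list.

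**Figure D4:**
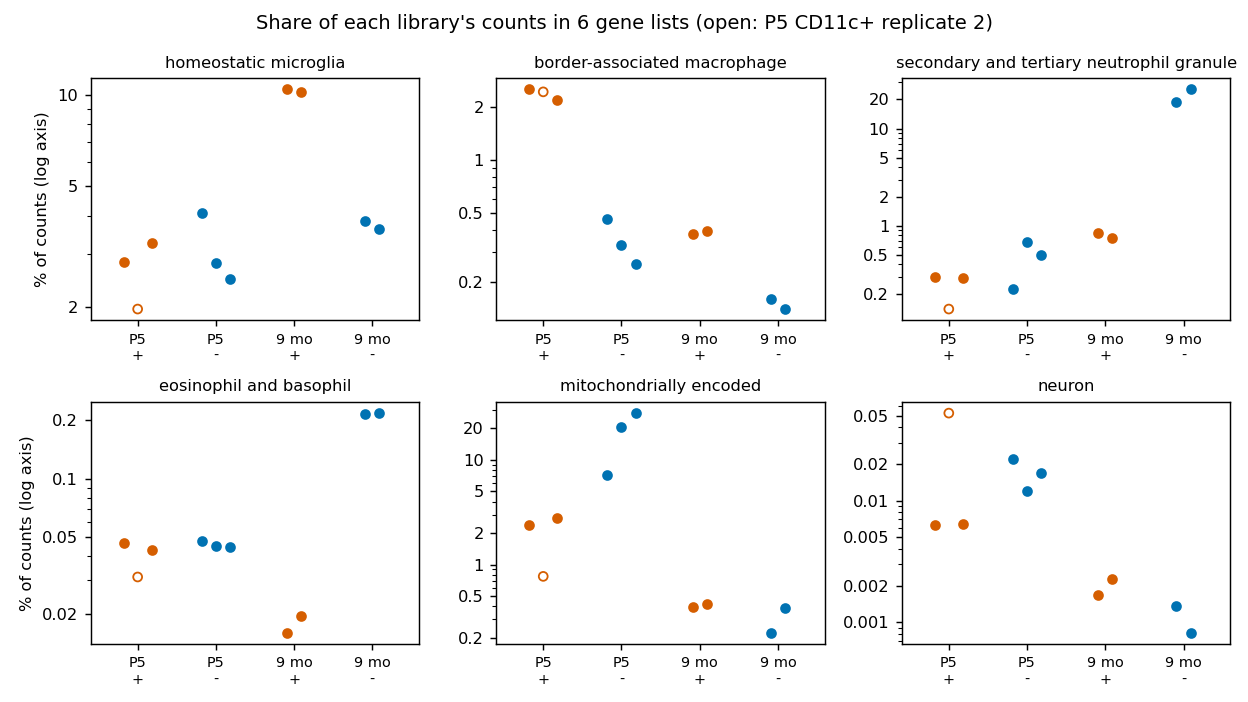
Share of each library's counts (percent, log axis) taken by 6 gene lists, by age and CD11c gate, with P5 CD11c+ replicate 2 as an open point. The secondary and tertiary granule list takes 19% and 25.4% in the 9-month CD11c- libraries and under 1% elsewhere, and the mitochondrially encoded list takes 7.15% to 28% in the P5 CD11c- libraries.

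Eosinophil and basophil genes followed the same order at 9 months, at 0.216% to 0.218% of counts in CD11c- libraries against 0.0161% to 0.0196% in CD11c+, and 0.0312% to 0.0478% in the P5 libraries. Of 19 tested, 5 were lower and 1 (Siglecf) higher, against 10.3% lower and 8.76% higher of all genes tested. Of 20 genes of glycolysis tested, 11 had a lower CD11c difference at 9 months and 2 a higher one over 9 libraries, and 0 of 20 passed over 10. Among them 9 were gained as lower and 1 as higher, against 1081 gained as lower of all 18348 genes tested, and 8 of 20 had a 9-month fold above 0. Gpi1, the isomerase of glucose 6-phosphate, was at 437, 141 and 379 CPM against 276, 321 and 279.6 at P5 and at 178 and 146 against 1088 and 837 at 9 months. Its interaction was -3.12 (adjusted p = 0.000248; 0.0962 over 10 libraries), and that of pyruvate kinase, Pkm, was -2.41 (adjusted p = 0.000552; 0.312 over 10 libraries). Whether these genes, the mitosis genes and the granule genes came from the same cells of the 9-month CD11c- sort was not tested.

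Genes gained as higher in CD11c+ cells at 9 months included receptors of microglia. Mertk, a receptor kinase for the uptake of dying cells, was at 429.9, 386 and 413 CPM against 746, 460.0 and 429 at P5 and at 823 and 724 against 199 and 178 at 9 months. Its folds were -0.52 (SE 0.20) and 1.77 (SE 0.22), and the interaction passed in both fits (2.29, adjusted p = 0.000876; over 10 libraries 2.43, adjusted p = 0.0312). Trem2, a lipid-sensing receptor, was at 684, 198 and 667 CPM against 1121, 620.0 and 574 at P5 and at 1316 and 1159 against 479.9 and 357 at 9 months (interaction 1.64, adjusted p = 0.00746). Over 10 libraries the interaction of Trem2 was 2.07 and did not pass (adjusted p = 0.235). Havcr2 (TIM-3) had folds of -0.26 and 1.77 (interaction 2.03, adjusted p = 0.000876). The P5 groups overlapped for Mertk, Trem2 and Havcr2, and the 9-month groups did not. Under scaling to the homeostatic list none of these 3 interactions passed, at 0.49 for Mertk, -0.17 for Trem2 and 0.24 for Havcr2. Of 43 lysosomal genes, 8 had a higher and 2 a lower CD11c difference at 9 months, against 8.76% and 10.3% of all genes tested. The list's median interaction was 0.55 against 0.24 over all genes, or -1.19 against -1.52 under that scaling.

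Transcripts of neurons showed how far P5 CD11c+ replicate 2 set the values. The neuron list took 0.0524% of counts in that library, 0.00628% and 0.0064% in the other P5 CD11c+ libraries, 0.0121% to 0.022% in P5 CD11c- and at most 0.00228% at 9 months. Map1b, a microtubule-associated protein of axons, was at 8.89, 217 and 3.96 CPM in the P5 CD11c+ libraries against 33.0, 35.2 and 77.7, and its interaction was 6.26 (adjusted p = 0.00227) without replicate 2 and 3.0 (adjusted p = 0.528) with it. Meg3, a noncoding RNA of neurons, was at 2.70, 36.3 and 1.12 CPM against 105, 37.5 and 51.0, with an interaction of 4.94 (adjusted p = 0.0135) and 2.62 (adjusted p = 0.558), and the first did not pass without 9-month CD11c+ replicate 2. At 9 months both genes were under 3 CPM in all libraries. The neuron list's median interaction was accordingly 2.96 over 9 libraries and 0.18 over 10, with 5 of 27 members called higher in the first and 0 of 26 in the second.

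The remaining genes of the microglial set had interaction intervals that include 0 or values near the threshold in the 9-library fit. The disease-associated microglia list as a whole had 6 of 43 members higher and 11 lower, against 8.76% and 10.3% of all genes tested. The median interaction of that list was -0.01 (against 0.24 over all genes). Clec7a (Dectin-1, a receptor for beta-glucans) had folds of 0.70 (SE 0.37) and -1.04 (SE 0.41), and its interaction of -1.74 (adjusted p = 0.0497) was lost without P5 CD11c+ replicate 1 or 3, P5 CD11c- replicate 3, either 9-month CD11c+ library or 9-month CD11c- replicate 2. Il1b, which encodes interleukin-1 beta, was at 59.9, 29.0 and 56.6 CPM against 15.4, 85.8 and 73.2 at P5 and at 93.2 and 79.5 against 483 and 454 at 9 months, with an interaction of -2.47 (interval -4.28 to -0.66, adjusted p = 0.0592). Lpl, lipoprotein lipase, was at 681, 2957 and 622 CPM against 628, 401 and 408 at P5, and its interaction was 0.16 (interval -0.44 to 0.76) without replicate 2 and -0.72 with it. Under scaling to the homeostatic list, over 9 libraries, the interaction of Lpl was -1.63 and passed the test (adjusted p = 0.00112). Tnf, which encodes tumour necrosis factor, had an interaction of 1.23 (interval -0.26 to 2.72, adjusted p = 0.225). Under the same scaling the interactions of Clec7a (-3.43, adjusted p = 0.00187) and Il1b (-4.13, adjusted p = 0.0043) also passed. That of Tnf (-0.47, adjusted p = 0.642) did not pass under the homeostatic scaling.

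**Figure D5:**
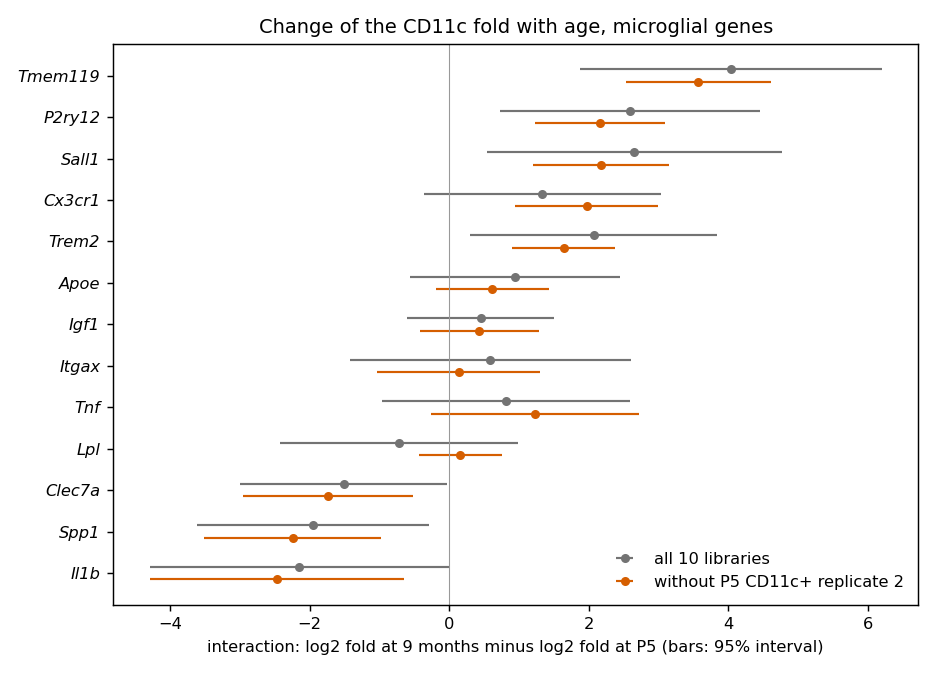
Interaction (log2 fold at 9 months minus log2 fold at P5, x axis) of 13 microglial genes with its 95% interval, over all 10 libraries and without P5 CD11c+ replicate 2. Tmem119 lies highest at 3.57 over 9 libraries, Igf1 and Itgax lie near 0 at 0.43 and 0.13, and Spp1 lies at -2.25; under scaling to the homeostatic list, over 9 libraries, the interactions of Igf1, Apoe, Itgax, Lpl, Trem2 and Tnf fall below 0.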

How the data were processed

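Total RNA of sorted microglia was sequenced in 10 libraries. The authors deposited 1 table of read counts per library, with 49315 genes each and no normalization. Trimmomatic 0.36, STAR 2.5.2b and Subread 1.5.2 are named in the submitters' processing notes. The sources used here do not give the genome build or the strand setting. Among IDs shared with GENCODE M21 (GRCm38), 91.4% had the same start and end.

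The deposited counts were fitted with edgeR 4.0.16 (R 4.3.3): filterByExpr, TMM scaling, the 4 groups as the design, and the quasi-likelihood F-test with Benjamini-Hochberg adjustment over all genes tested. The same libraries gave the P5 fold, the 9-month fold and their difference. Levels are CPM from the deposited counts. The test was checked on simulated counts. Named genes were 13 microglial genes, the 4 leading genes of each class and direction (average log2 CPM 3 or above, groups not overlapping at an age where the class needs a fold of 2), and up to 3 genes of each of 31 lists by interaction p. Members of lists that were named beside a count were chosen after their values were seen. The classes, lists and genes were chosen with earlier results of these data known. Of 923 list entries, 920 matched a gene. Promoters were taken from RefSeq (GRCm38.p6), 250 bases before the start nearest to the deposited one (median distance 11 bases). Genes that share sequence with close copies, such as Ifit3b, Ms4a6c and the Cd209 lectins, may share reads, and their values are uncertain. The alternatives were DESeq2 1.42.0, limma-voom 3.58.1 with and without quality weights, other scalings and filters, a replicate block and each library left out. All 10 value columns were used, and 0 were left out. A few genes behind the counts of lists are not reported here by name.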

Additional observations from a re-analysis of the deposited data

Results flagged for a closer look

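The CD11c difference itself differed between the 2 ages, by the interaction test over 10 libraries, for 59 genes in the higher direction and 305 in the lower one, and over 9 libraries for 1607 and 1889. Each value below is the interaction over 10 libraries on the log2 scale, of a named gene that passed that test.

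Genes whose difference was higher at 9 months were Tmem44 (3.90), Mrc2 (3.77), Adgrg1 (3.55), Slco4a1 (3.43), Slc2a5 (3.35), Zfp862-ps (2.79), Ddah2 (2.58), Tppp (2.45), Mertk (2.43), Ears2 (2.31), Siglecf (2.26) and Sall3 (2.25). Adgrg1, Slc2a5, Mertk and Sall3 belong to the homeostatic microglia list.

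Members of the macrophage, monocyte, complement, cytokine and microglial lists whose difference was lower at 9 months were Ccl7 (-2.71), Pf4 (-3.85), Ms4a7 (-3.96), F13a1 (-5.51), Fn1 (-3.94), Hp (-4.23), Cd93 (-3.81), Cfp (-5.16), Il1rn (-4.26), Cd52 (-3.12), Anxa2 (-3.50) and Lgals1 (-3.82). Ly6c1 (-6.03), a member of the vascular and meningeal list, was at 56.3 and 42.2 CPM in the 9-month CD11c- libraries and under 1 CPM in the other 8. Granulocyte and precursor genes were Mmp9 (-5.89), Fpr1 (-6.03), Cxcr2 (-4.85), Cebpe (-3.87), Ccr3 (-4.51) and Myb (-6.11). Cell cycle genes were Uhrf1 (-2.85), Cdc6 (-3.15), Rrm2 (-3.43), Hmmr (-3.64), Nusap1 (-3.91) and Birc5 (-4.41). Myb, a transcription factor of blood progenitors, was at 23.4 and 23.1 CPM in the 9-month CD11c- libraries, against 0.589 and 0.385 in CD11c+.

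The other genes with a lower difference were Cox7a2 (-2.14), Ddx60 (-2.62), Plin3 (-2.90), Rgs18 (-4.85), Cmah (-5.49), Tmem8 (-6.36), Crispld2 (-6.52), Lbp (-6.60), Cpne2 (-7.22), Prkar2b (-7.64) and Stk39 (-8.28). In Plin3, a protein of lipid droplets, P5 CD11c+ replicate 2 stood apart at 278 CPM against 89.8 and 81.6 in the other P5 CD11c+ libraries.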

How the results depend on the processing

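Counts below are in the order higher, lower, reversed, lost, gained and kept. Over 10 libraries (59, 305, 69, 1, 185 and 61 as reported) they were 102, 521, 88, 9, 363 and 70 with DESeq2's size factors, 738, 1647, 352, 60, 1140 and 236 with DESeq2, 98, 428, 91, 3, 299 and 58 with limma-voom, and 1872, 2045, 507, 191, 1966 and 1177 with quality weights. They were 139, 554, 168, 14, 251 and 122 with no filter, 372, 907, 133, 33, 721 and 106 with at least 10 CPM in 2 libraries, and 11, 6861, 2198, 194, 1871 and 14 with libraries scaled to the homeostatic list. Leaving out 1 library gave 0 to 1607 higher, 0 to 1889 lower, 0 to 337 reversed, 0 to 160 lost, 0 to 1819 gained and 0 to 440 kept, with the highest counts all without P5 CD11c+ replicate 2. Over 9 libraries (1607, 1889, 337, 160, 1819 and 440) scaling to the homeostatic list gave 115, 9903, 723, 277, 5536 and 204. Of those 723 reversed genes, 668 went from higher to lower and 55 from lower to higher, against 108 and 229 as reported. Of those 204 kept genes, 40 were higher and 164 lower, against 311 and 129 as reported. Only 161 of the 337 reversed genes and 118 of the 440 kept genes held their class under that scaling. Kept genes numbered 722 with DESeq2, 1150 with quality weights and 702 with no filter, and reversed genes 548 with no filter and 124 with the stricter filter. A further library left out gave 541 to 2694 higher, 1089 to 2164 lower, 164 to 698 reversed, 49 to 175 lost, 918 to 2269 gained and 134 to 803 kept. Higher calls were fewer by over 1.5 times without P5 CD11c+ replicate 1 or 3, P5 CD11c- replicate 2, either 9-month CD11c+ library or 9-month CD11c- replicate 1, and more without 9-month CD11c- replicate 2. Lower calls were fewer by that much without P5 CD11c+ replicate 1 or 3 or 9-month CD11c+ replicate 1. Of the calls, 46% were higher as reported, 38.4% with DESeq2's size factors, 27.7% without P5 CD11c- replicate 2 and 61.9% without 9-month CD11c- replicate 2. The cause of these shifts was not tested. DESeq2's size factors moved the median interaction of all genes to -0.30 over 10 libraries and 0.11 over 9, and scaling to the homeostatic list to -2.51 and -1.52.

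With the replicate number within each age as a block, 0 genes were called higher, lower, reversed, lost or gained over 10 libraries and 6 were kept; over 9 libraries the counts were 1418, 1883, 280, 165, 1712 and 337. The labels do not say whether same-numbered libraries share animals, and the numbers were not taken as pairs. Deviations from the group means of same-numbered libraries correlated at 0.483, 0.0459 and -0.475 at P5 and 0.12 at 9 months. Not every P5 CD11c+ library correlated best with its own number. These correlations cannot decide on pairing, because deviations within a group sum to 0 and P5 CD11c+ replicate 2 stood apart. With 2 libraries per group at 9 months, the values can only be equal in size, at 0.12 and -0.12.

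Over 10 libraries, scaling to the homeostatic list turned these interactions below 0: Itgax -1.43, Igf1 -2.15, Apoe -1.34, Trem2 -0.0453, Cx3cr1 -1.64, Tnf -1.97, Tppp -0.0407, Ears2 -0.298, Sall3 -0.14, Mertk -0.0482, Siglecf -0.179, Slc1a3 -0.569, Map1b -0.318, Meg3 -0.792, Gm40309 -2.76, Cand2 -0.315 and C2 -1. With limma-voom, Prss34 was at -0.597 and Elane at -2.25. With quality weights, Lpl was at 0.0375, Prss34 at -0.038, Timd4 at 0.0595, Elane at -0.393 and Mcpt8 at 0.448. The stricter filter put the interaction of Gm40309 at -0.0889. With 1 library left out, the interaction of Lpl ranged from -1.04 to 0.161 and that of Mcpt8 from -3.23 to 1.39 (both highest without P5 CD11c+ replicate 2), the interaction of Elane from -0.466 (without P5 CD11c- replicate 2) to 2.25, and that of Timd4 from -3.31 to 2.27 (without 9-month CD11c- replicate 2). None of the genes that turned with a test, a filter or a left-out library passed the interaction test over 10 libraries. With 2 libraries per group at 9 months, leaving out 1 assumes that the remaining library varies like the other groups. At the depth of P5 CD11c+ replicate 2, 1 CPM is under 3 counts, so differences in genes near 1 CPM were not detectable there.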
